A study of Mus musculus with 20 samples.

Results

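The keratin genes Krt5 and Krt14, which mark basal cells of the mammary gland, and Krt8 and Krt18, which mark its luminal cells, were examined in ATAC-seq lists of open chromatin. All entries of the 14 deposited lists that overlapped 3 windows of the mouse genome (build mm9) by at least 1 base were taken: chr15:101500000-101580000 around Krt5, chr11:100030000-100105000 around Krt14 and chr15:101790000-101900000 around Krt8 and Krt18. These came to 150 of 311468 entries, with 26 in the Krt5 window, 23 in the Krt14 window and 101 in the Krt8/Krt18 window. Of the 150 entries, 139 were peaks of normal cell types, 6 came from lists named UAR, and 5 were tumour regions that the authors list as closed where SOX10 is high.

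The study sorted mammary cells and measured accessible DNA with the Tn5 transposase, which inserts sequencing adapters into open chromatin. The normal populations, all from C57BL6J mice, had 2 samples each: fMaSC (the fetal mammary stem cell population) at embryonic day 18, and from adult glands the basal cells, the luminal progenitors and the mature luminal cells. The tumour lists used here compare luminal SOX10-high and luminal SOX10-low cells, 3 samples each, sorted from tumours that the mouse mammary tumour line PY230 formed in syngeneic mice of the same strain background. PY230 is a single line, and the sources used here do not give the number of animals behind a sample. Each list combines the samples of its group, so there is 1 value per population. Depth is unknown for single samples, values carry no replicate error, and no test between populations was made. Peaks were called in each population separately. A missing peak means that none was called, which is not the same as closed chromatin, and fewer open cells cannot be told apart from weaker opening in each cell.

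Keratins form intermediate filaments from pairs of a type I and a type II protein. Krt5 (type II) pairs with Krt14 (type I) in basal cells of stratified epithelia and in the myoepithelial layer of the mammary gland, and Krt8 (type II) pairs with Krt18 (type I) in simple and luminal epithelia. Type II keratin genes lie in a cluster on mouse chromosome 15, which also holds Krt18, and the other type I genes lie on chromosome 11. Gene positions were taken to the nearest kb: Krt5 from 101.538 to 101.543 Mb, Krt8 from 101.827 to 101.835 Mb and Krt18 from 101.859 to 101.862 Mb on chromosome 15, and Krt14 from 100.064 to 100.069 Mb on chromosome 11. No mm9 annotation was used here. As a check on distances alone, the gap between Krt5 and Krt8 was 284 kb in these positions and 283.8 kb in RefSeq's annotation of GRCm38.p6, and the gap between Krt8 and Krt18 was 24 kb against 23.9 kb. Gene lengths differed more from RefSeq's: 5 kb here against 5837 bp for Krt5, and 5 kb against 4349 bp for Krt14. For Krt8 they were 8 kb and 7632 bp, and for Krt18 3 kb and 3811 bp. Shares of gene bodies given below are therefore approximate. In RefSeq's order Krt5 lies between the keratin genes Krt6a and Krt71, Krt14 between Krt9 and the pseudogene Gm11597, and Krt8 and Krt18 between Krt78 and the long non-coding RNA Gm41405.

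The 5′ ends of the 4 genes were the sites at which the cell types were compared first, so their start sequences are given where RefSeq (GRCm38.p6) has them. Each run holds 250 bases before and 10 bases after the annotated start, on the gene's own strand, and capitals mark the motif matches described next. Krt5 is chr15:101712896-101713155 (minus strand), Krt8 is chr15:102004333-102004592 (minus strand) and Krt18 is chr15:102027966-102028225 (plus strand), all in GRCm38.p6 and not in mm9.
Krt5: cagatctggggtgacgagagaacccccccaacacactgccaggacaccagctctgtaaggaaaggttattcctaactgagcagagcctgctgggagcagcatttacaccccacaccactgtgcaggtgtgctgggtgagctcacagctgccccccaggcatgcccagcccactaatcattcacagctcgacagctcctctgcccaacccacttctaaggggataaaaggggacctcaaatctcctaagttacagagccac
Krt8: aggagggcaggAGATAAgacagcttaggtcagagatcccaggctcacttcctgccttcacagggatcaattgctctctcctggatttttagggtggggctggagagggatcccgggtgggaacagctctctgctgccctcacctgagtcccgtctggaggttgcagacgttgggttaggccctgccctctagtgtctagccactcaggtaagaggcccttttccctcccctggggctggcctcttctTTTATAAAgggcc
Krt18: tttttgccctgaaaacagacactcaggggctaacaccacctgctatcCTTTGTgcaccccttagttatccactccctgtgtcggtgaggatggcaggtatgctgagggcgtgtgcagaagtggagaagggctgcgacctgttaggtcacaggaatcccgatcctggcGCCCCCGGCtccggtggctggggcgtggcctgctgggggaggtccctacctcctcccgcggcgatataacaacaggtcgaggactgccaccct
The RefSeq entry for Krt14 starts 1480 bp inside the outer end of the annotated gene and is not shown. All 4 genes matched an entry, and 10 short motifs were searched on both strands over 300 bases of each entry, of which 50 follow the start. Krt8 held TATAAA, the letters of the TATA box, in overlapping matches on both strands that run across the annotated start itself. Of all 32851 promoters, 13.6% held these letters anywhere in their 300 bases, which is no share at that position. Krt8 also held AGATAA, a motif of GATA factors, 239 bases before the start, against 11.2% of promoters. Krt18 held GCCNNNGGC (AP-2), 83 bases before the start, against 16.6%, and ACAAAG (SOX factors) on the opposite strand, 203 bases before the start, against 18.7%. Krt5 held none of the 10. The other motifs, with no match in these 3 runs, were TGANTCA (AP-1, 7.81% of promoters), GGGCGG (GC box, 35.7%), GGAATG (TEAD, 14.7%), CCGGAA (ETS, 14.9%), TGTTTAC (FOX, 3.65%) and TGTGGT (RUNX, 16.8%). A match describes letters in these windows only. Krt18 had 17 CpG dinucleotides in its 300 bases, Krt5 and Krt8 had 6 each, and the median promoter had 7.

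At Krt5, the type II keratin of basal cells, the gene and its upstream flank were covered by basal peaks, while neither luminal population had a peak on the gene or within 14 kb of its 5′ end. The basal list had a single peak across the 5′ end, chr15:101540565-101545750, 5186 bp wide. Its fold, the authors' enrichment of a peak over the caller's background, which is used here only to place a peak within its own list, was 20.0. This was higher than 89.2% of basal peaks, and the peak was the 67th widest of 80294. A second basal peak inside the gene, chr15:101538840-101539524, had a fold of 4.96. Together they covered 62.4% of the gene body, and basal peaks covered 78.2% of the 5 kb upstream.

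Fetal cells had no peak on the Krt5 gene body. They had 3 narrow peaks upstream, at 1.2, 3.4 and 4.7 kb from the 5′ end, with widths of 315, 293 and 297 bp and folds of 7.09, 6.33 and 4.81. Each overlapped a basal peak. Of all fMaSC peaks, 43.3%, 34.3% and 9.77% had a lower fold than these 3, so none stood in the upper part of its list. The nearest luminal progenitor peak was 14.7 kb from the 5′ end and the nearest mature luminal peak 14.5 kb.

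**Figure D1:**
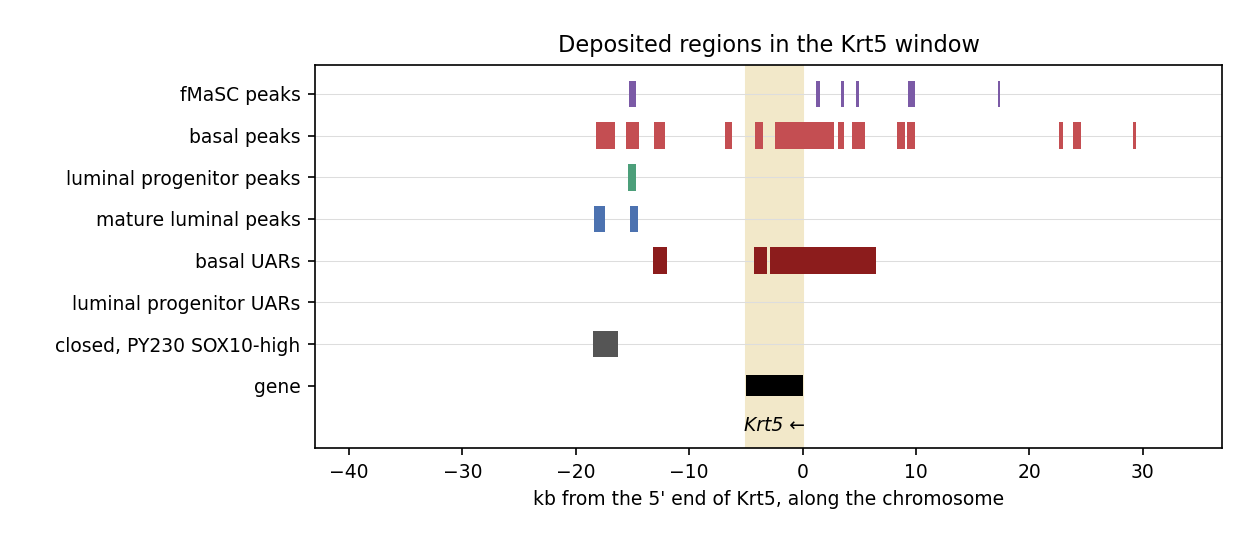
Deposited regions in the Krt5 window. The horizontal axis is the distance in kb from the 5′ end of Krt5 along the chromosome, the gene (shaded) is read from right to left, and each bar is 1 entry drawn to scale in the list named at the left. Basal peaks and basal UARs cover the gene and its upstream side, luminal peaks lie only to the left, with near edges at 14.5 to 17.4 kb, and 1 region closed in SOX10-high PY230 cells lies over the left mature luminal peak.

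Across the whole Krt5 window, basal cells had 13 peaks, fMaSC 6, luminal progenitors 1 and mature luminal cells 2. Per 100 kb this was 16.2 basal peaks against 3.04 over the whole basal list, 7.5 fMaSC peaks against 3.03, 1.25 luminal progenitor peaks against 2.28 and 2.5 mature luminal peaks against 2.33. Basal peaks covered 14.7 kb of the 80 kb, or 18.4%, where the basal list covered 2.67% of the genome. The fMaSC peaks covered 2.96%, the luminal progenitor peak 0.874% and the mature luminal peaks 2.12%. Over whole lists, basal peaks were dense here relative to their list, and luminal peaks were close to or below the density of theirs. With the 30000 peaks of highest fold per list, the contrast was smaller, with 4 basal, 2 fMaSC, 1 luminal progenitor and 2 mature luminal peaks. Another basal peak, of rank 29963, was tied across the cutoff and left out. This cut is stricter for the longer lists, with 80294 basal and 79910 fMaSC peaks against 60030 luminal progenitor and 61584 mature luminal peaks. At or above each list's median fold, the counts in the same order were 5, 2, 1 and 2.

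After all peaks of the 4 types were merged where they touched or overlapped, the Krt5 window held 14 union regions. Of these, 11 (78.6%) had a basal peak and no luminal peak, against 25.1% of all 128797 union regions. Of the 11, 7 had a basal peak alone (15.5% of all union regions) and 4 had basal and fMaSC peaks (9.63%). Another region had an fMaSC peak alone (13.5% of all), a 200 bp peak with a fold of 4.81. Of the 6 fMaSC peaks, 5 overlapped a basal peak, where 70.0% of all fMaSC peaks did. The strongest of the fMaSC peaks shared with basal cells alone, chr15:101552250-101552931, lay 9.2 kb upstream with a fold of 11.4, higher than 70.7% of its list.

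The other 2 union regions of the Krt5 window held the luminal peaks, and both lay beyond the 3′ end of the gene. One was open in all 4 types. There the basal peak, chr15:101527414-101528604, had a fold of 23.3, the highest of the basal peaks in the window and higher than 94.3% of its list. The fMaSC peak there had a fold of 14.9, the luminal progenitor peak 11.0 and the mature luminal peak 13.2, each higher than 81.5%, 74.5% and 72.7% of its own list. By fold alone, the highest basal site of the window was therefore a site common to all types and not the gene's own start. By width the order was reversed, with 1191 bp here against 5186 bp for the basal peak at the start. The other region, chr15:101524609-101526460, held a mature luminal peak with a fold of 17.7 and a basal peak with a fold of 10.3, and no fMaSC or luminal progenitor peak, a combination found in 1.60% of all union regions.

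The authors' UAR lists name regions for 1 normal type each. The labels do not expand the name, and of 5144 basal UARs 5142 overlapped a basal peak. The Krt5 window held 3 basal UARs and no entry of the other 7 UAR and URR lists (URR is likewise not expanded). Each of those 7 lists overlapped at most 2.96% of all union regions, so their absence says nothing particular about Krt5. Basal UARs overlapped 5 of the 14 union regions, against 4.80% of all union regions, and 5 of the 13 basal peaks, against 7.67% of all basal peaks. The largest, chr15:101540101-101549500, ran for 9400 bp over the 5′ part of Krt5 and its upstream flank. Its score, a value whose scale is not given, is written as infinite, as in 19 basal UARs in all, and it was the 10th widest of the list. Basal peaks covered 72.4% of it and fMaSC peaks 9.63%, and luminal peaks covered none of it. The other basal UARs were chr15:101538701-101539900 inside the gene, with a score of 2086, and chr15:101529801-101531000 beyond its 3′ end, with a score of 3404. The second of these held a basal peak with a fold of 12.7, the third highest of the window, and no peak of another type.

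Krt14, the type I partner of Krt5, lies on another chromosome, and here too the gene itself carried basal peaks and no luminal peak. Basal cells had 1 wide peak across the 5′ end and most of the gene, fMaSC had 2 narrower peaks on the gene, and the nearest luminal peaks of both kinds lay 38 kb away. The wide basal peak, chr11:100066084-100070520, measured 4437 bp, the 145th widest of its list, with a fold of 19.8, higher than 88.7% of basal peaks. A second basal peak on the gene, chr11:100064214-100065001, had a fold of 6.04, and the pair covered 74.1% of the gene body. Basal peaks covered 35.5% of the 5 kb upstream.

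The fMaSC peak at the Krt14 5′ end, chr11:100068714-100069285, was 572 bp wide with a fold of 14.9, higher than 81.5% of fMaSC peaks. The other fMaSC peak on the gene, chr11:100066309-100066986, had a fold of 13.7, higher than 78.2%. Both lay inside the wide basal peak, and they covered 19.3% of the gene body. They were narrower than that basal peak but not narrow for their own list, being wider than 62.1% and 70.0% of fMaSC peaks. The fMaSC list covered 1.82% of the genome and the basal list, of similar length, 2.67%, so basal peaks were wider on average over the whole list. A further fMaSC peak 0.8 kb upstream had a fold of 5.06. Basal cells had a peak within 1 kb of both starts. Fetal cells had one within 1 kb of the Krt14 start and not of the Krt5 start, but within 2 kb they had one at both, and gene ends are known here only to the nearest kb.

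**Figure D2:**
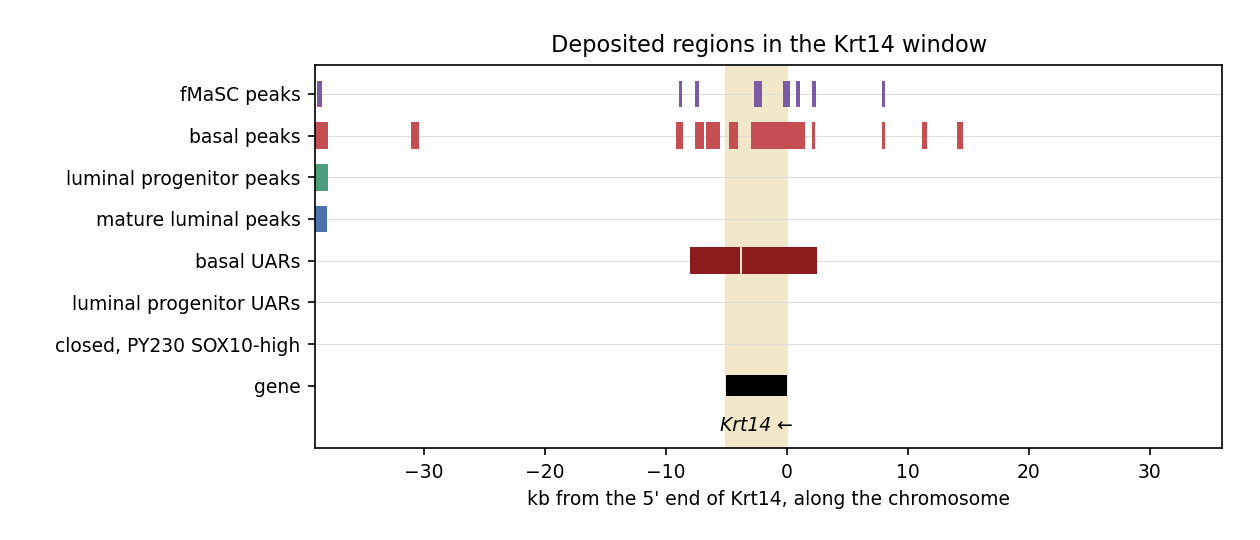
Deposited regions in the Krt14 window. The horizontal axis is the distance in kb from the 5′ end of Krt14 along the chromosome, the gene (shaded) is read from right to left, and each bar is 1 entry drawn to scale. Both luminal lists have a single peak, at the left edge about 38 kb from the 5′ end, while basal and fMaSC peaks lie on and around the gene.

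The Krt14 window had 11 basal peaks, 8 fMaSC peaks, 1 luminal progenitor peak and 1 mature luminal peak. This was 14.7 basal and 10.7 fMaSC peaks per 100 kb, and 1.33 for each luminal list. Basal peaks covered 14.2% of the 75 kb, fMaSC peaks 4.13%, the luminal progenitor peak 1.38% and the mature luminal peak 1.29%. Over whole lists, basal and fMaSC peaks were dense here relative to their lists and luminal peaks were not. With the 30000 peaks of highest fold per list, the window held 1 basal peak, 2 fMaSC peaks and 1 peak of each luminal list, so the higher basal count rested on peaks outside that set. At or above each list's median fold, it held 4 basal peaks, 4 fMaSC peaks and 1 peak of each luminal list.

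Of 11 union regions in the Krt14 window, 10 (90.9%) had a basal peak and no luminal peak, against 25.1% of all union regions. Of these 10, 5 were basal alone and 5 had basal and fMaSC peaks. All 8 fMaSC peaks overlapped a basal peak, where 70.0% of all fMaSC peaks did, and 6 of the 11 basal peaks overlapped an fMaSC peak, where 64.5% did. With the 30000 peaks of highest fold per list, regions with a basal and no luminal peak numbered 3 in the Krt5 window and 1 in the Krt14 window. The last region lay at the edge of the window and was open in all 4 types, with folds of 10.1 in basal cells, 7.85 in fMaSC, 10.4 in luminal progenitors and 9.71 in the mature luminal list. Beyond the 3′ end of the gene, a site shared by basal cells and fMaSC had the third highest fold of each of these lists in the window. There the basal peak, chr11:100061428-100062167, had a fold of 9.70 and the fMaSC peak, chr11:100061454-100061753, a fold of 9.12.

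Krt14 held 2 basal UARs side by side and no entry of the other UAR and URR lists. The first, chr11:100065301-100071500, spanned 6200 bp over the 5′ part of the gene and its upstream flank, with a score of 8193, higher than 96.1% of basal UARs, and was among the 32 widest. Basal peaks covered 75.7% of it and fMaSC peaks 30.4%. The second, chr11:100061001-100065100, spanned 4100 bp over the 3′ end of the gene and beyond, with a score of 3718. Basal peaks covered 64.0% of it and fMaSC peaks 7.32%. No luminal peak touched either. In this window basal UARs overlapped 5 of the 11 union regions, against 4.80% of all. Each of the other UAR and URR lists overlapped at most 2.96% of all union regions, so their absence says nothing particular about Krt14. Taking the 5 basal UARs of the Krt5 and Krt14 windows, 3 held an fMaSC peak, against 42.8% of all basal UARs, and 0 held a luminal progenitor or mature luminal peak, against 26.2% and 19.2%.

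At Krt8 and Krt18, the luminal pair, all 4 cell types had a peak at both 5′ ends, basal cells included. The 2 luminal lists differed from the other lists, and from each other, inside and beyond the gene bodies. At the Krt8 5′ end the basal peak, chr15:101833234-101837090, was 3857 bp wide with a fold of 20.7, higher than 90.4% of its list. The mature luminal peak there, chr15:101834577-101837863, was 3287 bp wide with a fold of 15.7, higher than 80.4%. The luminal progenitor peak, chr15:101834597-101836469, had a fold of 11.6, higher than 76.8%. In fMaSC the same stretch was split, with peaks of fold 17.7 (chr15:101834620-101835118) and 16.0 (chr15:101835432-101836222), higher than 87.0% and 83.8%. The lowest of these standings, in luminal progenitors, was 76.8%, so the Krt8 start stood well above the median fold in every list.

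The start of Krt18 stood lower within each list. The peak there had a fold of 10.4 in fMaSC (chr15:101858421-101858902), 11.2 in basal cells (chr15:101858392-101859547), 7.07 in luminal progenitors (chr15:101858367-101858882) and 6.97 in mature luminal cells (chr15:101858454-101859550). These were higher than 66.5%, 65.4%, 51.3% and 36.7% of their own lists. Luminal progenitors had a further small peak just inside the gene, chr15:101859049-101859275, with a fold of 4.36. The presence of a peak at the 5′ ends of Krt8 and Krt18 thus did not separate luminal from basal cells.

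**Figure D3:**
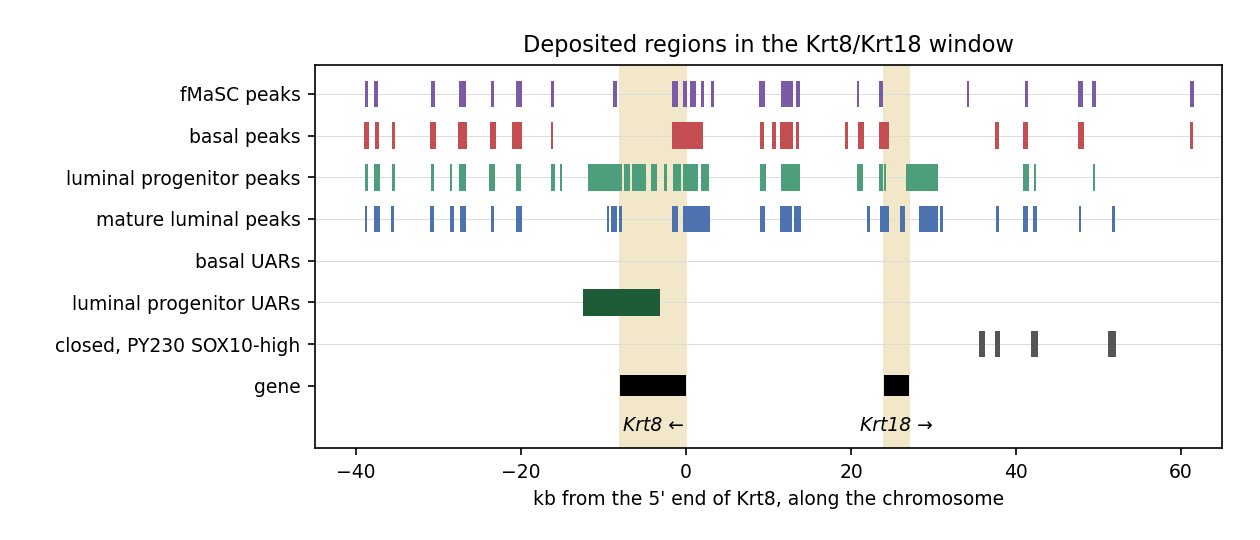
Deposited regions in the Krt8/Krt18 window. The horizontal axis is the distance in kb from the 5′ end of Krt8 along the chromosome; Krt8 (shaded, left) is read from right to left and Krt18 (shaded, right) from left to right, and each bar is 1 entry drawn to scale. All 4 lists have peaks at both 5′ ends, the luminal progenitor list fills the Krt8 body and the stretch to its left, both luminal lists have a wide peak at or beyond the 3′ end of Krt18, and 4 closed PY230 regions lie to its right.

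The body of Krt8 was covered mainly in luminal progenitors. Their 7 peaks on the gene covered 61.8% of it, against 22.1% for 1 basal peak, 15.7% for 3 mature luminal peaks and 13.1% for 2 fMaSC peaks. The widest of the 7, chr15:101823062-101827203, reached from the 3′ end of the gene outward over 4142 bp, the 106th widest of 60030 peaks, with a fold of 14.3, the highest of this list in the window and higher than 85.0% of luminal progenitor peaks. The other 5 inside the gene were weaker, with folds of 8.11 (chr15:101827517-101828248), 4.99 (chr15:101828463-101830101, chr15:101830784-101831446 and chr15:101833423-101834334) and 3.95 (chr15:101832313-101832702). Near the 5′ end, at chr15:101833298-101833957, mature luminal cells had a peak of fold 7.22, and fMaSC had one of fold 12.2 at chr15:101833310-101833975. At the 3′ end mature luminal cells had a small peak of fold 4.98, chr15:101826905-101827170. Between 101827517 and 101832702 on chromosome 15, inside the gene, peaks of luminal progenitors were the only ones.

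A single luminal progenitor UAR, chr15:101822501-101831800, spanned 9300 bp of the Krt8 3′ part and the stretch beyond it. It was the widest of the 306 luminal progenitor UARs, and its score of 2932 was higher than 90.2% of them. Luminal progenitor peaks covered 77.2% of it, mature luminal peaks 14.2%, fMaSC peaks 4.96% and basal peaks none. It overlapped 4 of the 35 union regions of the window, where luminal progenitor UARs overlapped 0.273% of all union regions, and 4 of the 27 luminal progenitor peaks, where it was 0.583% of that list. No other UAR and no URR of any type overlapped the window. Over all union regions, fMaSC UARs overlapped 1.06%, mature luminal UARs 2.96% and basal URRs 0.0660%. At such background shares, a count of 0 in 35 regions says nothing particular about Krt8 or Krt18.

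At Krt18 the luminal lists shared an open stretch beyond the 3′ end that the other lists lacked, and the luminal progenitor peak also reached over the 3′ end. The luminal progenitor peak, chr15:101861696-101865505, was 3810 bp wide, the 147th widest of its list, with a fold of 11.4. The mature luminal peak, chr15:101863266-101865519, was 2254 bp wide with a fold of 9.71. Mature luminal cells also had a peak inside the gene, chr15:101860880-101861588, with a fold of 5.48. Mature luminal peaks covered 42.0% of the Krt18 body, basal peaks 18.3% and luminal progenitor peaks 17.7%, and fMaSC peaks covered none of it. Since gene ends are known here to the nearest kb, these shares of a 3 kb gene are approximate.

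**Figure D4:**
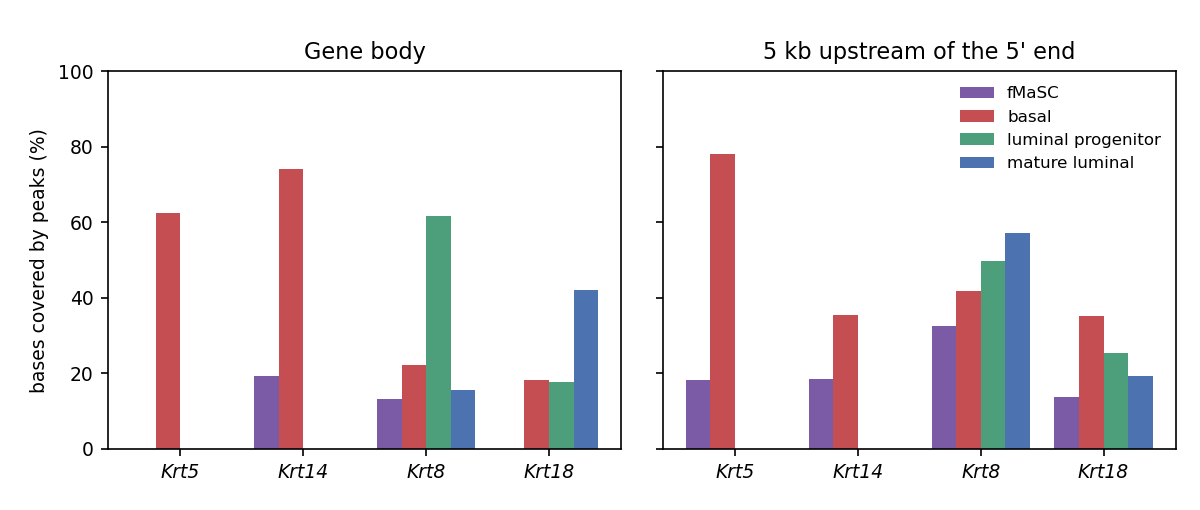
Share of bases covered by peaks of each type, in percent, for the body of each keratin gene (left) and for the 5 kb upstream of its 5′ end (right); each bar is 1 pooled peak list, so there are no error bars. Luminal bars are at 0 for Krt5 and Krt14 in both panels, and the tallest bar over a gene body is basal for Krt5 (62.4%) and Krt14 (74.1%), luminal progenitor for Krt8 (61.8%) and mature luminal for Krt18 (42.0%). Gene ends are to the nearest kb, and for Krt18 the order of the luminal bars depends on where its 3′ end is placed.

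The stretch between Krt8 and Krt18 held the peaks of highest fold in the window in both fMaSC and basal cells. The site from 101846355 to 101848880 on chromosome 15, where RefSeq's order places the long non-coding RNAs Gm36026 and Gm41404 between the genes, was open in all 4 types. The basal peak there, chr15:101846355-101847904, had a fold of 23.3, higher than 94.3% of its list, and the fMaSC peak, chr15:101846530-101847918, had a fold of 23.3, higher than 94.4%. Luminal progenitors had 1 peak over the site, chr15:101846482-101848831, with a fold of 13.7, higher than 83.4%. Mature luminal cells had 2, of fold 16.9 (chr15:101846418-101847888) and 17.9 (chr15:101848070-101848880), the second of which was their highest in the window. Further from the genes, luminal progenitors had a peak of fold 13.9 at chr15:101875864-101876575, 16.9 kb past the Krt18 start, that overlapped peaks of all other types. On the far side, toward Krt78 and 26.6 to 37.1 kb from the Krt8 start, the peaks at chr15:101807348-101808398 (basal, fold 16.8) and chr15:101807479-101808361 (fMaSC, fold 20.5) were among the 3 highest of their lists here, as was the mature luminal peak at chr15:101797169-101797865, of fold 16.9.

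In the whole Krt8/Krt18 window the 4 lists had similar numbers of peaks, with 23 for fMaSC, 20 for basal cells, 27 for luminal progenitors and 26 for mature luminal cells. Every list was dense here relative to its own average, with 20.9, 18.2, 24.5 and 23.6 peaks per 100 kb. In tiles of 110 kb along the genome, the median was 2 peaks for fMaSC and basal cells and 1 for each luminal list. Covered bases differed more than counts did. Luminal progenitor peaks covered 23.8% of the window, mature luminal peaks 17.5%, basal peaks 15.1% and fMaSC peaks 11.1%. Over their whole lists these were 1.80%, 1.66%, 2.67% and 1.82% of the genome.

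Of the 35 union regions in the Krt8/Krt18 window, 11 (31.4%) had a peak in all 4 types, against 21.7% of all union regions, and 3 (8.57%) had a basal peak and no luminal peak, against 25.1%. A luminal peak with no fMaSC or basal peak was present in 12 (34.3%), against 20.2%. Of these 12, 5 were luminal progenitor alone (4.76% of all union regions), 4 mature luminal alone (12.2%) and 3 shared by both (3.17%). The Krt5 and Krt14 windows held none of this kind. With the 30000 peaks of highest fold per list, the count was 6 at Krt8 and Krt18 and 1 in each of the other windows. At the Krt5 and Krt14 sites so counted, the full basal list had a peak. These basal peaks had rank 29963 by fold, tied across the cutoff, and rank 30721. The cutoff also dropped an fMaSC peak at the Krt14 site. Neither site is luminal alone in the full lists. Sharing with basal cells was frequent in every other list: 19 of 23 fMaSC peaks, 17 of 27 luminal progenitor peaks and 16 of 26 mature luminal peaks overlapped a basal peak, where 70.0%, 74.6% and 61.5% of these lists did. For both luminal lists these shares, 63.0% and 61.5%, were at or below those of the whole list. Between the luminal lists, 19 of 27 luminal progenitor peaks overlapped a mature luminal peak, against 64.5% of that list, and the reverse held for 20 of 26 mature luminal peaks, against 63.7%.

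**Figure D5:**
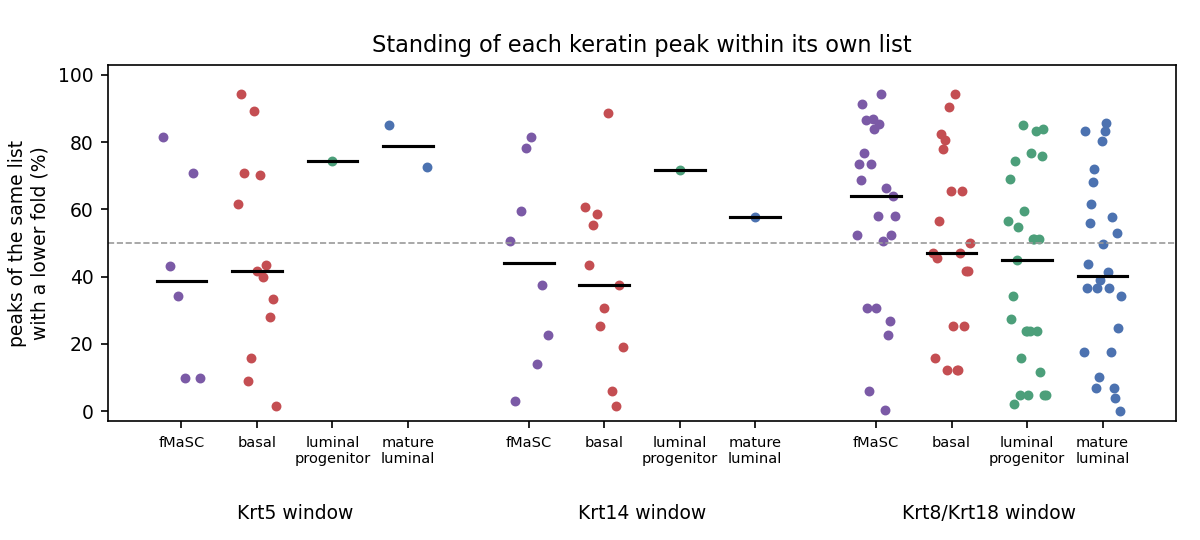
Standing of each peak of the 3 windows within its own list. The vertical axis is the percentage of peaks in the same list with a lower fold, each point is 1 peak, points are spread sideways in chromosome order, the black bar is the median of the group and the dashed line marks 50%. In the Krt5 and Krt14 windows the medians of the basal and fMaSC groups lie below 50%, while single basal peaks reach 94.3% and 88.7%.

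Most of the many basal peaks around Krt5 and Krt14 were ordinary by fold. Of 13 basal peaks in the Krt5 window, 5 reached the median fold of the basal list, 7.98, and 4 of 11 did so in the Krt14 window. Of the fMaSC peaks, 2 of 6 and 4 of 8 reached the median of their list, 7.60. In the Krt8/Krt18 window the same count was 17 of 23 fMaSC peaks, 9 of 20 basal peaks, 13 of 27 luminal progenitor peaks (list median 6.86) and 11 of 26 mature luminal peaks (8.47). The wide peaks over the gene starts stood out more by width than by fold: the basal peaks at the starts of Krt5, Krt14 and Krt8 were wider than 99.9%, 99.8% and 99.6% of basal peaks, and higher in fold than 89.2%, 88.7% and 90.4%.

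In the PY230 lists, no body or 5′ end of the 4 keratin genes was in the open or the closed list. No region of the open list overlapped any of the 3 windows, where 1.88% of all union regions overlapped the open list. The closed list had 1 region in the Krt5 window, 4 in the Krt8/Krt18 window and 0 in the Krt14 window. It overlapped 1 of 14 union regions at Krt5 and 3 of 35 at Krt8 and Krt18, or 7.14% and 8.57%, against 11.0% of all union regions. These shares of union regions were near or below the background. They do not say how dense closed regions were per kb, because the windows are rich in union regions. A closed region without a normal peak is also left out of them. The whole closed list held 15108 regions, and density per kb was not tested.

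The closed region in the Krt5 window, chr15:101524501-101526700, lay 16.3 kb from the Krt5 start, beyond its 3′ end. Its score of 1792 was higher than 98.3% of the closed list. It covered the site open in mature luminal and basal cells, with mature luminal peaks over 45.0% of it and basal peaks over 77.8%, and no fMaSC or luminal progenitor peak. The site next to it that was open in all 4 types was not in the closed list.

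The 4 closed regions of the Krt8/Krt18 window all lay past the Krt18 3′ end, 11.5 to 27.2 kb from its start. The one of highest score, 369, was chr15:101886201-101887100, and it held a mature luminal peak alone, of fold 6.73. The region chr15:101872401-101873100, with a score of 149, held basal and mature luminal peaks. The region chr15:101876801-101877700, with a score of 98.4, held luminal progenitor and mature luminal peaks. The last, chr15:101870501-101871200, with a score of 299, held no peak of a normal type, as did 13.3% of closed regions. Counted with the region at Krt5, 4 of 5 held a mature luminal peak, against 83.1% of all closed regions. Basal peaks were in 2 of the 5, against 30.1%, a luminal progenitor peak in 1, against 31.4%, and an fMaSC peak in 0, against 25.6%.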

How the data were processed

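ATAC-seq peaks and regions were analysed in mouse cells of 4 normal mammary types and in PY230 tumour cells, with samples grouped by their titles. Per the submitters' processing notes, the tools were MACS2 2.1.1 and SICER, Bowtie 0.12.8, bedtools 2.20.1, SAMtools 1.3.1 and FastQC, and the build was mm9 (roles and order are not stated). For each normal type the authors called 1 list over its pair of samples (q-value 0.001), per the names of the lists, and deposited a fold for each peak, a ratio to the caller's background. The UAR, URR, open and closed lists carry a score deposited by the authors, whose scale and calling method are not given in the sources used here. Read filters and the Tn5 offset are not given either, and they set which peaks exist.

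Peak positions were kept as deposited, since mitochondrial peaks run from base 1 to 16299, and the other lists, on a 100 bp grid, were moved by 1 base. Peaks on the mitochondrial genome were not used. Overlap means at least 1 shared base. A peak counts as at a 5′ end within 1 kb of it, and strands are RefSeq's. Named regions were fixed by rule: peaks on a gene or its 5′ end, all UAR, URR and PY230 entries, and the 3 peaks of highest fold per list and window. No test was made, since each list is 1 pooled value. The members and lists were chosen with earlier results of these data known. Python 3.11.15, numpy 2.4.6 and pandas 2.3.3 were used, and overlap counts, merging and covered bases were tested on simulated data against bedtools 2.31.1. Alternatives were a stricter fold, the 30000 strongest peaks per list, other window limits, merging within 500 bp, a fixed width of 500 bp and 50% overlap. Markers of other cells and genes of like pattern were not analysed here, because no mm9 annotation was used.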

Additional observations from a re-analysis of the deposited data

How the results depend on the processing

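No paired analysis was possible because each list pools its samples and holds no value per sample, and for the same reason no sample could be left out. Of 155 alternative values of 50 results, 104 stayed within the limits set (1.5 times for a count, the binomial interval for covered bases). That interval treats bases as independent although they fall in few peaks, so it is a working limit and measures no spread between samples. The 104 include counts of 0 that stayed at 0. Counts moved most with the strength asked of a peak. With the 30000 peaks of highest fold per list, the Krt5 window held 2 fMaSC and 4 basal peaks, the Krt14 window 2 fMaSC peaks and 1 basal peak, and the Krt8/Krt18 window 12 fMaSC, 7 basal, 13 luminal progenitor and 10 mature luminal peaks. Luminal counts at Krt5 and Krt14 did not move under this setting, which keeps a larger share of the shorter luminal lists than of the basal and fMaSC lists. Regions with a basal and no luminal peak then numbered 3 at Krt5, 1 at Krt14 and 0 at Krt8/Krt18, regions with luminal peaks alone 1, 1 and 6, and regions open in all types at Krt8/Krt18 4. The luminal-alone regions at Krt5 and Krt14 have basal peaks in the full list that fell at or just outside this cutoff. Covered bases were then 1261 (fMaSC) and 8496 (basal) at Krt5, 1250 and 4437 at Krt14, and 8001, 10152, 18560 (luminal progenitor) and 11442 (mature luminal) at Krt8/Krt18. With peaks at or above the median fold, counts were 2 (fMaSC) and 5 (basal) at Krt5, 4 and 4 at Krt14, and 9 (basal), 13 (luminal progenitor) and 11 (mature luminal) at Krt8/Krt18. With each peak set to 500 bp, covered bases in the order fMaSC, basal, luminal progenitor and mature luminal were 3000, 6500, 500 and 1000 at Krt5, 4000, 5500, 447 and 345 at Krt14, and 11500, 10000, 13500 and 13000 at Krt8/Krt18. Basal cells kept the most covered bases at Krt5 and Krt14, and luminal progenitors at Krt8/Krt18, with the 30000 peaks and with the fixed width. At the fixed width, covered bases only follow the number of peaks, so that setting is no separate measure of cover. There the luminal progenitor lead at Krt8/Krt18 was 13500 against 13000 bases. With peaks merged within 500 bp, both luminal lists had 22 peaks in that window. With windows widened by 10 kb at each end, luminal progenitors had 2 peaks at Krt5 and 3 at Krt14, mature luminal cells 5 at Krt14, and the Krt14 window took in 3 closed PY230 regions and 1 entry of the other 6 UAR and URR lists. With windows narrowed by 10 kb, each luminal list had 0 peaks at Krt14. Merging within 500 bp left 6 regions with luminal peaks alone at Krt8/Krt18. Within 2 kb rather than 1 kb, 2 types had a peak at the Krt5 5′ end, since the nearest fMaSC peak is 1.2 kb away. Depth per sample is unknown, so how far it sets the number and width of peaks in each list was not tested.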

Other observations

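The 210 kb between the Krt5 and Krt8/Krt18 windows run from 101580001 to 101789999 on chromosome 15. By RefSeq's order other type II keratin genes lie between Krt5 and Krt8, among them Krt1 and Krt2 of the epidermis and Krt71 to Krt73 of the hair follicle's inner root sheath, but order alone does not say which of them fall in this stretch and which inside the windows. The stretch had 11 fMaSC, 10 basal, 7 luminal progenitor and 7 mature luminal peaks, or 5.24, 4.76, 3.33 and 3.33 per 100 kb. All 4 densities were below those of the Krt8/Krt18 window. Against the Krt5 window, fMaSC and basal peaks were sparser and luminal peaks of both kinds were denser. Basal peaks covered 4.57% of it, fMaSC peaks 2.19%, mature luminal peaks 1.77% and luminal progenitor peaks 1.3%. These 17 union regions included 4 with basal and fMaSC peaks, 2 with basal peaks alone, 2 shared by both luminal types alone and 2 open in all types. Peaks could not be tied to single genes in this stretch.

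Entries of the UAR and PY230 lists were also found there. Basal UARs lay at chr15:101600001-101604700, with a score of 4360, and at chr15:101632001-101633800, with a score of 5610. Besides basal peaks, each held an fMaSC peak, of fold 6.58 in the first and 4.3 in the second. A mature luminal UAR, the only one between Krt5 and Krt8, lay at chr15:101757401-101758700 with a score of 2570. It held a mature luminal peak of fold 16.2 and a luminal progenitor peak of fold 5.2. The closed PY230 list had 5 regions in the stretch, the one of highest score (491) at chr15:101759501-101760700, next to that UAR and over a mature luminal peak of fold 10.7. The open list had none. Over all union regions, basal UARs overlapped 4.80%, mature luminal UARs 2.96%, the closed list 11.0% and the open list 1.88%. The matching shares were not computed for this stretch, so its counts cannot be called high or low.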
